A study of Caenorhabditis elegans with 12 samples.

Results

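The genes described here are 37 genes of synaptic release and neurotransmitter synthesis in the nematode Caenorhabditis elegans, chosen by name for their known roles. All 37 were found among the 21982 genes of the deposited table, and 36 reached the mean of 10 normalized counts that testing required; unc-46 lay under it. RNA came from whole worms of strain KH2235 on day 6, a strain that carries a splicing reporter built as a minigene of ret-1. Worms in which the reporter gave mostly GFP formed the Green group, and worms in which it gave mostly mCherry formed the Red group. Strain, day and transgene were thus common to both groups. There were 6 libraries a group, with 1 of each colour in every one of 6 batches. The sources used here do not give the reporter's promoter, the food or the temperature. The comparison asks how animals that splice the same reporter differently also differ in the level of these genes.

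A chemical synapse releases transmitter when a vesicle docked at the active zone fuses with the plasma membrane. The SNARE proteins synaptobrevin, syntaxin and SNAP-25 drive the fusion, Munc18 and Munc13 proteins prepare it, and calcium entry through a voltage-gated channel triggers it. Neuropeptides and monoamines also leave from dense core vesicles, in which enzymes cut peptide precursors to their active form. Transmitters differ in their synthetic enzymes, vesicular transporters and plasma membrane transporters, though some of these are shared between transmitters. Many of these genes thus mark classes of neurons. In this worm some of the genes are also used outside neurons: endocytic genes act in many tissues, and tdc-1 and tbh-1 are expressed in the gonadal sheath as well as in a few neurons. In whole-worm RNA, fewer cells of a type and less RNA per cell cannot be told apart.

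Recovered totals ran from 30185155 to 87141961 reads per library. Along the second principal component of all tested genes, Red replicate 6 lay apart from the other 11 libraries, so the counts below are also given without it. Marker genes of neurons, muscle, intestine, epidermis, germline, embryo, pharynx and glia were all present, and none of the marker genes found in the table was at 0 in every library. Since separate cultures are not mentioned in the labels, the p-values speak only of the spread among these libraries, which may be technical.

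More of these genes were lower than higher in Green. Of the 36 tested, 14 passed as lower and 3 as higher in Green (limma, adjusted p under 0.05 over all 14618 genes tested), and 19 did not pass. Of all genes tested, 20.1% were called lower and 19% higher. The members' median log2 fold, Green against Red, was -0.28, against 0.04 for all genes tested. The fallen genes were spread over release, active zone, peptide processing, reuptake and, with cat-2, dopamine synthesis. The calcium channel gene unc-2 had the lowest log2 fold, -1.14. The 3 that rose, bas-1, tdc-1 and tbh-1, also encode enzymes of monoamine synthesis. Of 21 release, transport and recycling genes, 10 fell (47.6%) and 0 rose. Of 15 tested genes of transmitter synthesis and transport, 4 fell (26.7%) and 3 rose (20%), near the shares of all genes. Without Red replicate 6, 16 were lower and 4 higher, against 25.5% and 29.3% of all genes. When libraries were centred on their median gene, the all-gene median shifted from 0.04 to 0.16, and 12 members were lower and 5 higher, beside 16% and 28.5% of all genes. Under quantile normalization 12 were lower and 4 higher, where each direction held 16.1% of all genes. Blocking on batch gave 15 and 4 (22.6% and 23.2% of all genes), against 16 and 3 in edgeR (22.2% and 16.2%), and 16 and 3 in DESeq2 (22.7% and 18.4%).

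The direction was much the same in each batch. Of the 36 tested members, between 23 (batch 6) and 27 (batch 3) were lower in the Green library of the pair. In batches 1 to 5 these were 69.4% to 75.0% of members, beside 46.6% to 49.0% of all genes. The shares lay closer in batch 6, at 63.9% of members and 51.4% of all genes. The members' median log2 difference within a batch ran from -0.42 in batch 4 to -0.13 in batch 6. In 6 of 6 batches 16 members were lower in Green, or 44.4% of those tested, against 20.2% of all genes. Every Green library lay under every Red library for 6 members, while 9.71% of all genes showed this, and above every Red library for 3 members, against 7.06% of all genes. Those 9 genes are unc-64, unc-10, unc-2, syd-2, ida-1 and cho-1, which were lower, and bas-1, tdc-1 and tbh-1, which were higher.

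**Figure D1:**
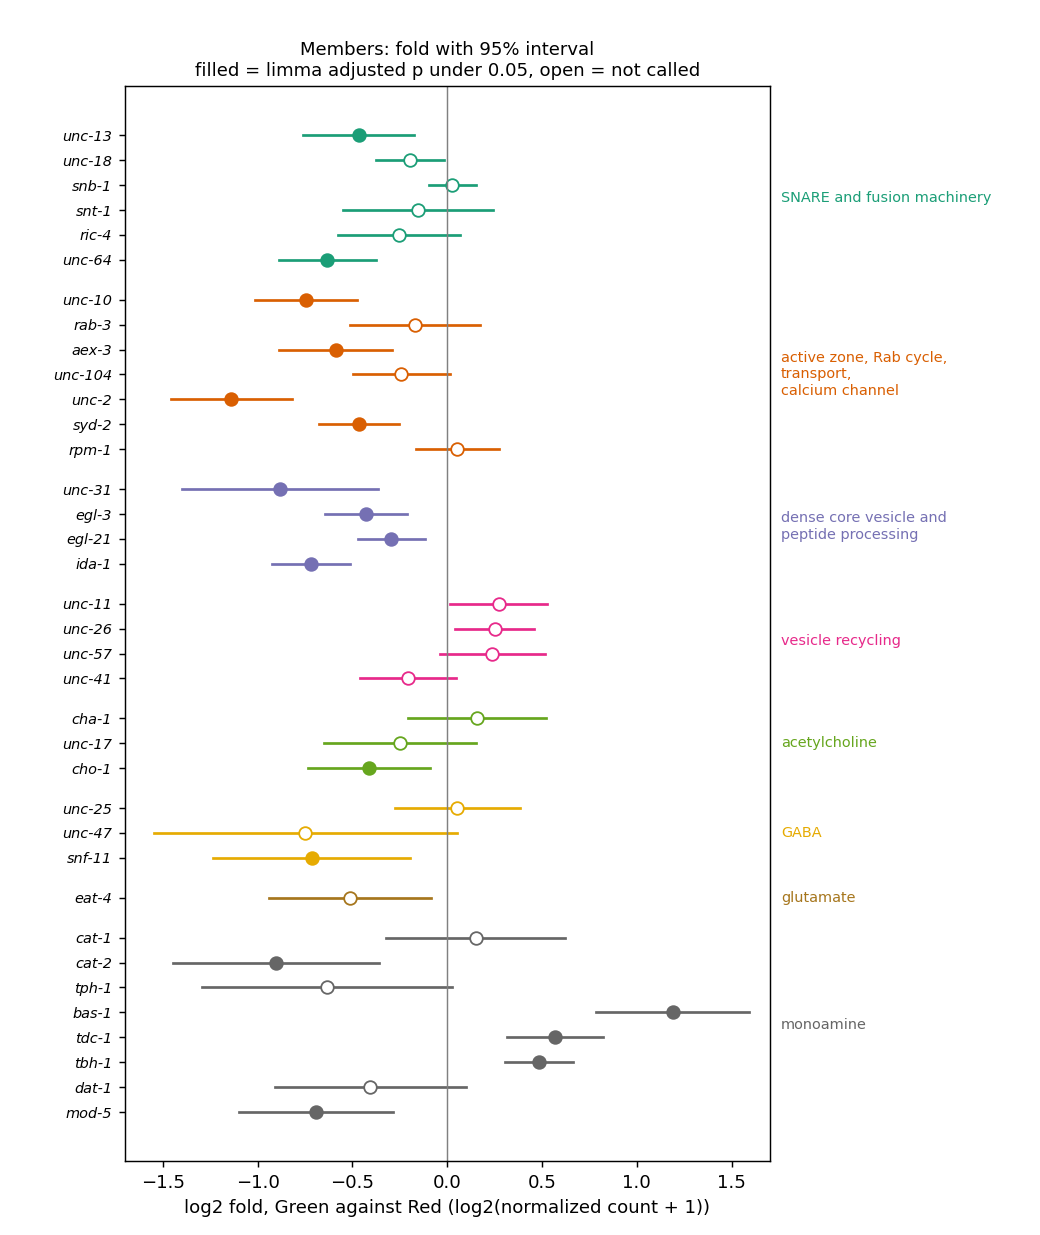
Log2 fold of each of the 36 tested genes, Green against Red on the log2(normalized count + 1) scale, with 95% intervals, grouped by role (n = 6 libraries a group); filled points passed limma at an adjusted p under 0.05 and open points did not. The 4 dense core vesicle genes all lie to the left of 0, and bas-1 lies farthest to the right.

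Levels differed widely between the genes. Per kilobase of annotated exon, the Red mean was highest for the synaptobrevin gene snb-1, at 9169 normalized counts per kb. Next came tdc-1 and tbh-1, at 4940.2 and 4229.5, and the endophilin gene unc-57, at 3724. Synthetic enzymes and vesicular transporters of the other transmitters ran from unc-25, at 115.7, down through bas-1 at 73.4, unc-17 at 35.3, eat-4 at 26.6 and cha-1 at 26.4 to tph-1, at 8.06 normalized counts per kb. The lowest of all was unc-46, at 4.93. Together tdc-1 and tbh-1 held 39.9% to 43.4% of the summed normalized counts of the 37 genes in Green libraries and 27.2% to 34.9% in Red. The sum over all 37 ran from 72117 to 78669 in Green and from 64006 to 73893 in Red, and the groups overlapped. The sum over the other 35 genes ran from 42397 to 45847 in Green and from 45925 to 48999 in Red. These groups did not overlap, but the highest Green and the lowest Red sum lay close together. Both tdc-1 and tbh-1 were called higher in Green, so leaving them out lowers the Green sums more than the Red ones.

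**Figure D2:**
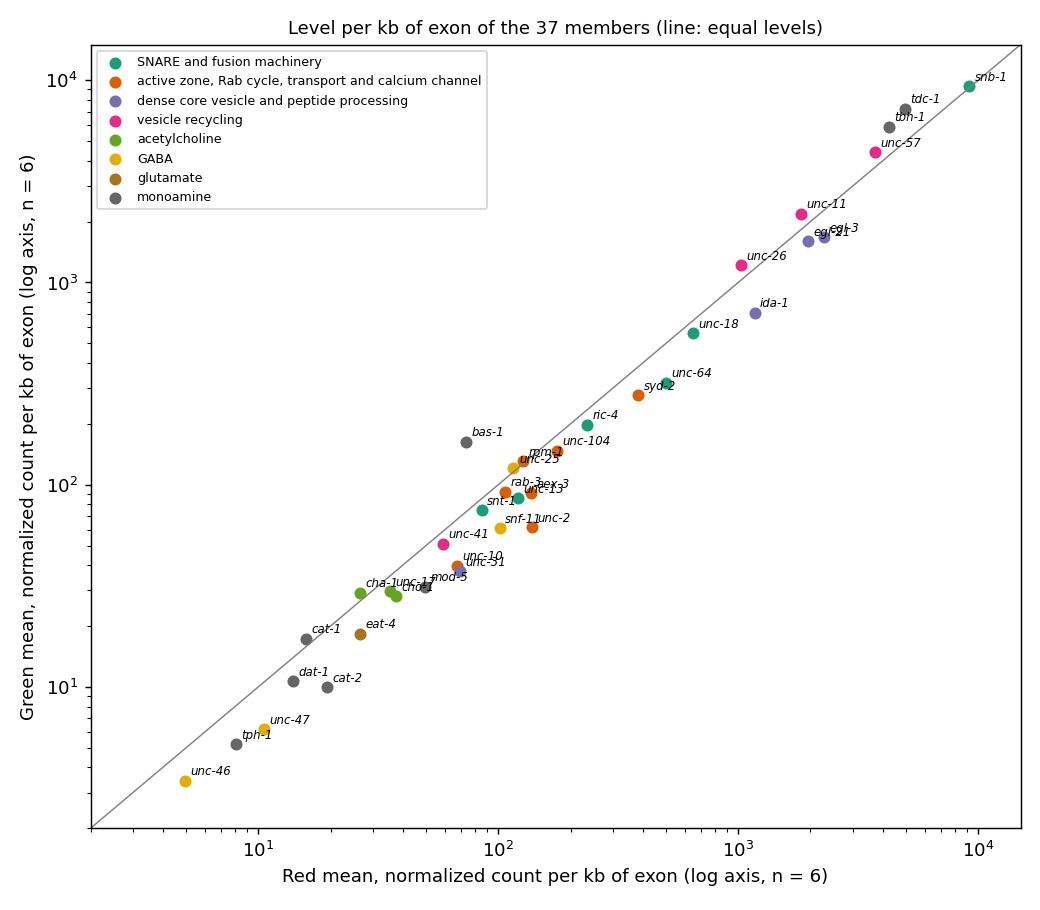
Mean level of the 37 genes in Red (horizontal) and Green (vertical), in normalized counts per kb of annotated exon on log axes (n = 6 libraries a group); the line marks equal levels and colours mark roles. tdc-1, tbh-1 and bas-1 lie above the line, and unc-2 and ida-1 lie below it.

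In the fusion machinery, unc-64 and unc-13 fell and the other 4 genes did not pass. The syntaxin gene unc-64 (III, 13277258 to 13283887, WBcel235) had a lowest, median and highest value of 684, 841 and 888 normalized counts in Green and 983, 1357 and 1602 in Red. The groups did not overlap, and Red replicate 6 was the highest. Its log2 fold was -0.63 ± 0.12 (SE; limma adjusted p = 0.0013). Its exons overlap those of the opposite-strand gene set-25 by 64 bases. For the Munc13 gene unc-13 (I, 7422785 to 7454116), whose product primes vesicles for fusion, the values were 524, 603 and 639 in Green and 542, 894 and 985 in Red. Here Red replicate 6 was the lowest Red library, at 542, and the only Red one that reached into the Green range. The log2 fold of unc-13 was -0.47 ± 0.14 (SE; limma adjusted p = 0.015), and -0.58 without that library.

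The remaining fusion genes lay closer to 0. The synaptobrevin gene snb-1 (V, 6655562 to 6656501) averaged 7528 ± 175 (SD) normalized counts over Green and 7399 ± 327 over Red libraries (n = 6 each). Its log2 fold of 0.03 had a 95% interval of -0.10 to 0.15 and turned to -0.01 in edgeR and -0.14 under quantile normalization, with no call. unc-18, the Munc18 gene, was lower in Green in 6 of 6 batches, with a log2 fold of -0.20 and a 95% interval of -0.38 to -0.02. Its limma adjusted p of 0.075 was over the threshold, and it came under it when batch was a block (0.034) or edgeR was used (0.038), in DESeq2 (0.032), under quantile normalization (0.018) and without Red replicate 3 (0.044). ric-4, the SNAP-25 gene, had a log2 fold of -0.25 with an interval of -0.58 to 0.07. The interval of the calcium sensor gene snt-1, a synaptotagmin, was -0.55 to 0.24, and snt-1 had its lowest value of all libraries, 91.2, in Red replicate 6; its log2 fold of -0.15 was -0.31 without that library (limma adjusted p = 0.056). Without batch 6 snt-1 was called lower, at -0.35 (limma adjusted p = 0.045), and under quantile normalization the fold turned to 0.05.

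Active zone genes fell in part, and unc-2 had the lowest fold of all members. It encodes the pore-forming subunit of the presynaptic calcium channel (X, 2710920 to 2763526) and had a lowest, median and highest value of 409.5, 471 and 589 normalized counts in Green and 721, 1066 and 1342 in Red. No Green library reached the lowest Red one, and the log2 fold of -1.14 ± 0.15 (SE) corresponds to a 2.20-fold higher level in Red (limma adjusted p = 9.1e-05). The RIM gene unc-10 (X, 7272317 to 7280322), a scaffold that ties vesicles to calcium channels, gave 169.8, 196 and 218 across Green libraries against 251, 336 and 391 across Red. Its groups did not overlap either, with a log2 fold of -0.74 ± 0.13 (limma adjusted p = 0.0006). The liprin-alpha gene syd-2 (X, 10549106 to 10555239), which organizes the active zone, gave 957, 1064 and 1216 across Green libraries against 1243, 1543 and 1718 across Red. Its groups were likewise apart, at a log2 fold of -0.46 ± 0.10 (limma adjusted p = 0.0025).

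Genes of the vesicle Rab cycle and of axonal transport gave a mixed picture. The exchange factor gene aex-3 (X, 751203 to 759734), which activates RAB-3, fell, averaging 446 ± 80.5 (SD) normalized counts over Green and 669.7 ± 113 over Red libraries (n = 6 each), at a log2 fold of -0.59 (limma adjusted p = 0.0052). rab-3 itself had a log2 fold of -0.17 with a 95% interval of -0.51 to 0.17, and 0.04 under quantile normalization. The kinesin gene unc-104, the motor that carries vesicle precursors down the axon, did not pass, with -0.24 (limma adjusted p = 0.12). Its Red replicate 6 was the lowest of the 12 libraries, and without that library unc-104 passed at -0.35 (limma adjusted p = 0.0034). The ubiquitin ligase gene rpm-1, which limits synapse and axon growth, had a log2 fold of 0.05 with an interval of -0.16 to 0.27, and -0.04 without Red replicate 6. Of these genes only aex-3 was called in the main test. They were counted as 1 role with unc-2, unc-10 and syd-2 above. Of the 7 genes of that role, 4 fell (57.1%, beside 20.1% of all genes) and 0 rose. Without Red replicate 6, 5 fell (71.4%, beside 25.5% of all genes).

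**Figure D3:**
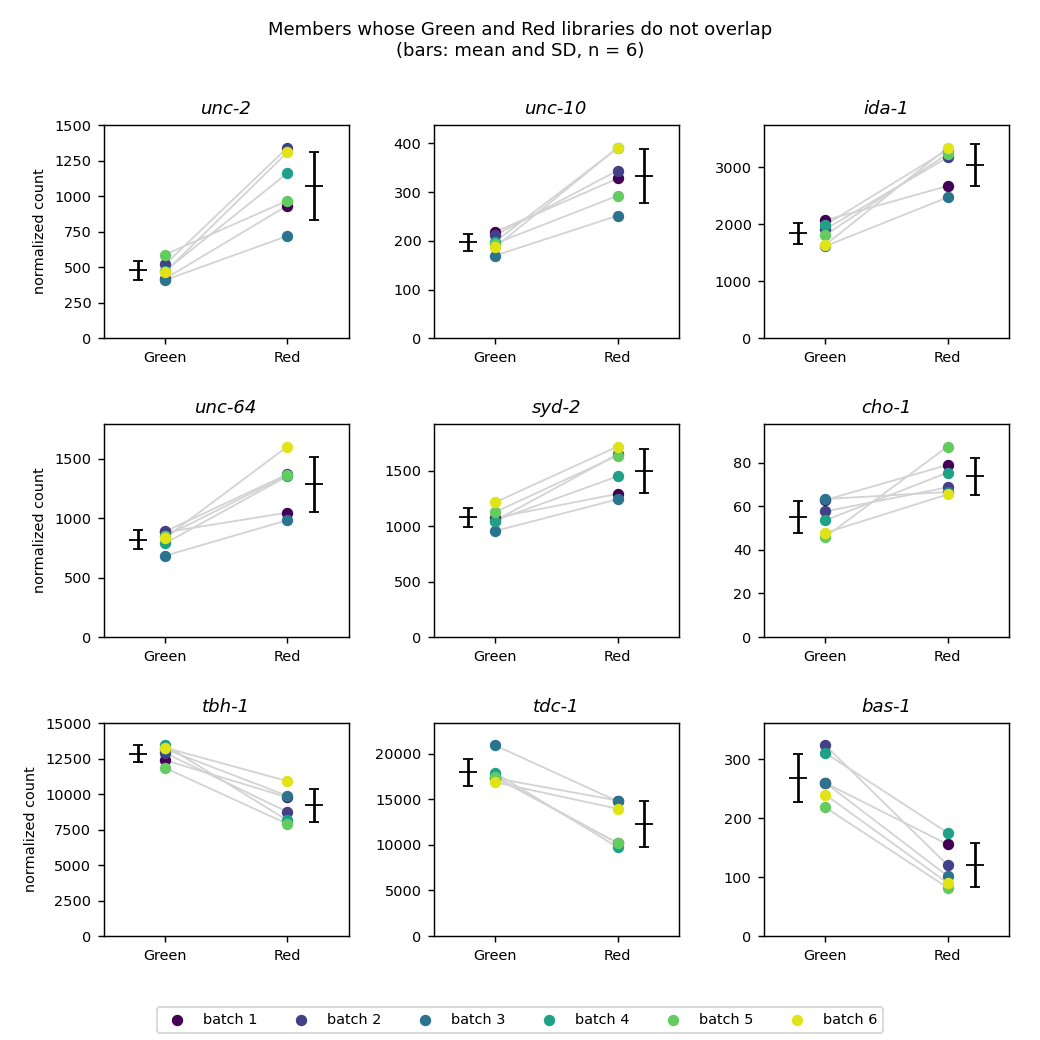
Normalized count (vertical, from 0) of the 9 genes whose Green and Red libraries do not overlap; points are libraries, grey lines join the pair of a batch, and black bars give the mean and SD (n = 6 a group). In the upper 6 panels every Green library is under every Red one, and for tbh-1, tdc-1 and bas-1 every Green library is above.

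All 4 dense core vesicle genes fell (100%, beside 20.1% of all genes). ida-1 (III, 5755539 to 5765816), whose product is a phosphatase-like protein of the vesicle membrane, gave 1615, 1861 and 2069 normalized counts across Green libraries against 2471, 3203 and 3341 across Red, as lowest, median and highest. The groups were apart, with a log2 fold of -0.72 ± 0.10 (SE; limma adjusted p = 0.00011). unc-31 (IV, 12773867 to 12788354), the CAPS gene needed for dense core vesicle release, gave 101, 199 and 264 across Green libraries against 223, 344 and 583 across Red. Its Red libraries were widely spread and overlapped the Green ones, and the log2 fold was -0.88 ± 0.24 (limma adjusted p = 0.011).

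The peptide-processing enzymes showed smaller folds at higher levels. The proprotein convertase gene egl-3 (V, 10169177 to 10173753), which cuts neuropeptide precursors, averaged 4303 ± 366 (SD) normalized counts over Green and 5835 ± 925 over Red libraries (n = 6 each), a log2 fold of -0.43 (limma adjusted p = 0.0049). The carboxypeptidase gene egl-21 (IV, 10478442 to 10481844), which trims the cut ends, had 2711 ± 268 and 3324 ± 270.4, a log2 fold of -0.30 (limma adjusted p = 0.012). The call of egl-21 was lost after centring. Both were lower in Green in 6 of 6 batches. Of the peptide genes themselves, counted by name after the data were seen, 18 of 30 flp genes fell and 0 rose, and 26 of 70 nlp genes fell and 3 rose (28 and 5 with the batch as a block), with median log2 folds of -0.39 and -0.32. In the main test the flp genes called lower were 60.0% of those tested and the nlp genes 37.1%, beside 20.1% of all genes. Without Red replicate 6, 18 flp genes fell (60.0%), and 31 nlp genes fell (44.3%) and 6 rose (8.57%). Of all genes, 25.5% were then lower and 29.3% higher. Centring left 8 flp (26.7%) and 19 nlp genes (27.1%) lower, beside 16% of all genes, and 3 of the 4 dense core vesicle genes. Quantile normalization left 4 flp (13.3%) and 14 nlp genes (20%) lower, near the 16.1% of all genes, and all 4 dense core vesicle genes.

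None of the 4 vesicle recycling genes passed, and 3 of them had positive folds. The AP180 gene unc-11, the synaptojanin gene unc-26 and the endophilin gene unc-57, which act in clathrin-mediated retrieval of vesicle membrane, stood at 0.27, 0.25 and 0.24 on the log2 scale (limma adjusted p = 0.083, 0.054 and 0.15). Each of the 3 was higher in Green in 5 of 6 batches. unc-26 was called when batch was a block (limma adjusted p = 0.03), after centring (0.025), and without Green replicate 1 (0.048), Green replicate 2 (0.047), Red replicate 1 (0.044) or Red replicate 3 (0.016). unc-11 was called after centring (limma adjusted p = 0.033) and without Red replicate 6 (0.017, at 0.34), and unc-57 without Green replicate 1 (0.022, at 0.34). The stonin gene unc-41 averaged 275 ± 34.4 (SD) normalized counts over Green and 318 ± 38.6 over Red libraries (n = 6 each), and its log2 fold of -0.21 had an interval of -0.46 to 0.05. The median log2 fold of the role was 0.24, and 0.37 after centring, 0.21 in edgeR and 0.08 under quantile normalization.

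**Figure D4:**
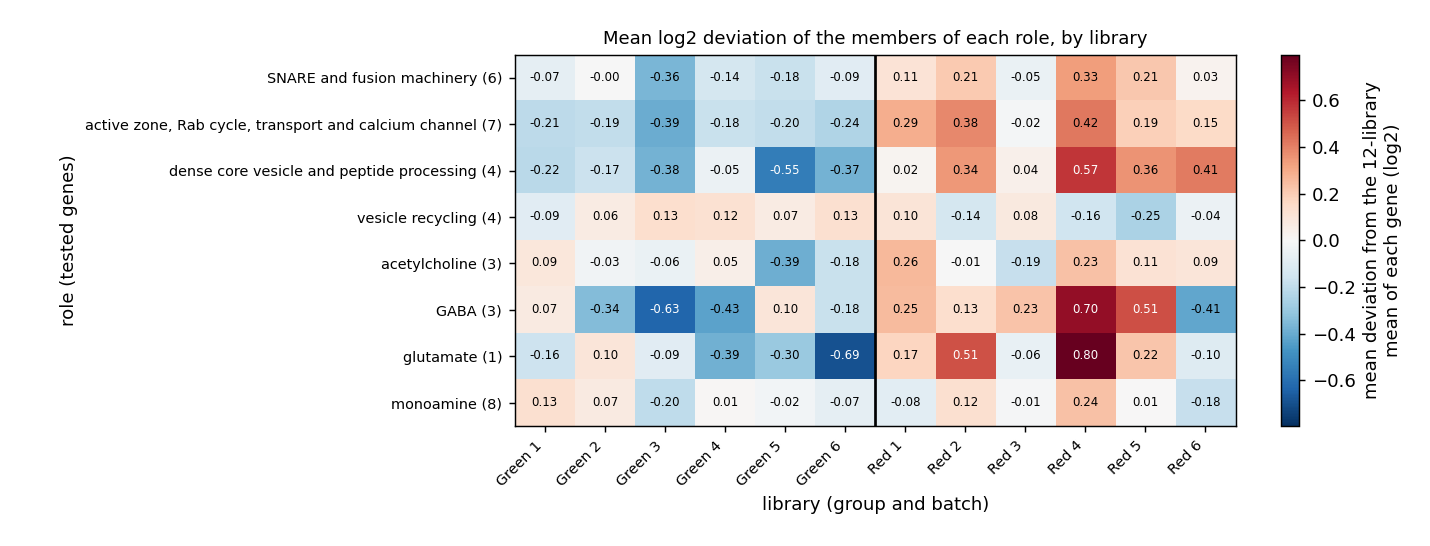
Mean log2 deviation of the tested members of each role from each gene's mean over the 12 libraries (colour and printed value), by library; the black line separates Green from Red. For the active zone and dense core vesicle roles every Green library is below every Red library, and the recycling genes do not show this.

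Read by library, the active zone and dense core vesicle roles were apart between the groups and the other 6 roles overlapped. The active zone role here also holds the Rab cycle, transport and calcium channel genes. Its called genes, unc-2, unc-10, syd-2 and aex-3, all lie on X. Among all tested X-linked genes 33.1% were lower, with a median log2 fold of -0.22. The role's other genes, rab-3, unc-104 and rpm-1, lie on II and V and were not called. The part of X linkage in the role's difference was not tested. The mean deviation of the active zone genes ran from -0.39 to -0.18 in Green and from -0.02 to 0.42 in Red. For the dense core vesicle genes it ran from -0.55 to -0.05 in Green and from 0.02 to 0.57 in Red. In both roles Red replicate 4 was the highest library. The monoamine genes ran from -0.20 to 0.13 in Green and from -0.18 to 0.24 in Red, and overlapped. Green replicate 3 was the lowest Green library for 14 of the 36 tested genes, and among Red libraries replicate 4 was the highest for 13. Red replicate 6 was the lowest Red library for 15 of them and the highest for 9.

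Of the acetylcholine genes, the choline transporter gene cho-1 fell and the other 2 did not pass. cho-1 (IV, 13209730 to 13214566), which returns choline to the terminal, gave 45.96, 55.6 and 63.3 normalized counts across Green libraries against 65.4, 72.0 and 87.3 across Red, as lowest, median and highest. The groups did not overlap, at a log2 fold of -0.41 ± 0.15 (SE; limma adjusted p = 0.041). The call was near the threshold: it was lost with the batch as a block (limma adjusted p = 0.056), after centring (0.13), without the filter (0.072), under quantile normalization and when any 1 of 8 libraries (Green 2, 4, 5 and 6, Red 1, 2, 4 and 5) was removed, with an adjusted p of up to 0.093. The choline acetyltransferase gene cha-1 and the vesicular acetylcholine transporter gene unc-17 share a start and overlap by 66 bases of exon on the same strand, so reads there could be split by the authors' counting. Their log2 folds were 0.16 and -0.25, with intervals of -0.21 to 0.52 and -0.65 to 0.15. Quantile normalization turned the sign of unc-17 and the median of the 3 genes, from -0.25 to 0.04.

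Of the GABA and glutamate genes, snf-11 fell and the others did not pass or were not tested. The GABA transporter gene snf-11 (V, 11305070 to 11308446), which clears GABA after release, gave 84.9, 125 and 191 normalized counts across Green libraries against 103.7, 224 and 278 across Red. The lowest Red value belonged to replicate 6 and the other Red libraries started at 193, above the highest Green library. Its log2 fold was -0.71 ± 0.24 (SE; limma adjusted p = 0.031), and -0.91 without Red replicate 6 (limma adjusted p = 0.0016). The call was lost under quantile normalization and when any 1 of Green replicates 2, 3 and 6 or Red replicates 1, 2, 4 and 5 was left out, with a limma adjusted p of up to 0.076.

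The GABA synthetic and vesicular genes did not pass. The glutamate decarboxylase gene unc-25, which makes GABA, averaged 207 ± 41 (SD) normalized counts over Green and 199 ± 33.5 over Red libraries (n = 6 each), with an interval of -0.28 to 0.38. The vesicular GABA transporter gene unc-47 had 9.70 ± 4.80 and 16.5 ± 7.06 normalized counts, and its log2 fold had an interval of -1.55 to 0.05; without batch 6 it was called lower, at -1.05 (limma adjusted p = 0.034). unc-46, whose product brings that transporter to vesicles, had 4.10 ± 2.18 in Green against 5.87 ± 3.19 and was not tested. The vesicular glutamate transporter gene eat-4, at 29.3, 40.8 and 51.4 in Green and 44.6, 55.2 and 84.0 in Red, was lower in Green in 6 of 6 batches. With a log2 fold of -0.51 and a limma adjusted p of 0.054 it was not called, and it was called when batch was a block (0.045), by edgeR (0.043), in DESeq2 (0.033), and without Red replicate 6 (0.022), Red replicate 3 (0.039) or Green replicate 2 (0.047). Its exons overlap the opposite-strand gene ZK512.2 by 79 bases, a gene that averaged 4147 ± 166 (SD) normalized counts over Green and 3759 ± 349.6 over Red libraries (n = 6 each).

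Monoamine genes split in both directions. bas-1 (III, 5612274 to 5614660), the aromatic amino acid decarboxylase gene shared by dopamine and serotonin synthesis, had a lowest, median and highest value of 218, 259.6 and 323 normalized counts in Green and 81.9, 111 and 175 in Red. Every Green library was above every Red one, and the log2 fold of 1.19 ± 0.19 (SE) is a 2.28-fold higher level in Green (limma adjusted p = 0.00036). The tyrosine hydroxylase gene cat-2 (II, 257819 to 261074), the step before bas-1 in dopamine synthesis, moved the other way, with 18.3, 21.6 and 35.4 in Green and 23.4, 51.5 and 62.4 in Red. It overlapped between groups and fell at -0.90 ± 0.25 (limma adjusted p = 0.013), a call lost under quantile normalization. In 5 of 6 batches cat-2 was lower in Green, and in batch 1 it was higher, by 0.58 on the log2 scale. For the tryptophan hydroxylase gene tph-1, the step before bas-1 in serotonin synthesis, the means were 9.70 ± 4.42 (SD) over Green and 15.1 ± 4.59 over Red libraries (n = 6 each), and the interval of its log2 fold was -1.29 to 0.03; without Green replicate 5 it was called lower, at -0.81 (limma adjusted p = 0.049).

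The tyramine and octopamine enzymes rose together. The tyrosine decarboxylase gene tdc-1 (II, 8270597 to 8273615), which makes tyramine, gave 16879, 17451 and 20933 normalized counts across Green libraries against 9753, 12098 and 14878 across Red. The tyramine beta-hydroxylase gene tbh-1 (X, 15500256 to 15504895), which turns tyramine into octopamine, had 11847, 13043 and 13435 and 7901, 9260.4 and 10916. Both genes were higher in Green in 6 of 6 batches without overlap, with 0.57 ± 0.12 and 0.48 ± 0.08 on the log2 scale (SE; limma adjusted p = 0.0023 and 0.00066). Of the germline and oocyte markers, 8 of 8 also rose (6 of 8 in edgeR and 7 of 8 under quantile normalization), and their summed level ran from 303271 to 372056 in Green and from 178748 to 307376 in Red; their part in the rise of tdc-1 and tbh-1 was not tested. Exons of tdc-1 overlap the opposite-strand gene gei-14 by 73 bases and those of tbh-1 overlap H13N06.7 by 372 bases, and whether counting used strand is not given in the sources used here. gei-14 rose too, by 0.48 on the log2 scale (limma adjusted p = 0.0039), and H13N06.7 averaged 4.12 ± 1.94 (SD) normalized counts over Green and 4.77 ± 2.62 over Red libraries (n = 6 each).

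None of the 3 monoamine transporter genes was called higher in the main test. The serotonin transporter gene mod-5 (I, 3034716 to 3047794) gave 54.9, 79.7 and 117 normalized counts across Green libraries against 103.7, 122 and 161 across Red, a log2 fold of -0.69 ± 0.19 (SE; limma adjusted p = 0.012). Only the highest Green library reached into the Red range. Its exons overlap by 52 bases those of the opposite-strand gene Y54E10BR.2, which was far more abundant and rose by 0.48 on the log2 scale (limma adjusted p = 0.0017). The dopamine transporter gene dat-1 had an interval of -0.91 to 0.10, with a fold that turned to 0.01 under quantile normalization, and the vesicular monoamine transporter gene cat-1 one of -0.32 to 0.62. cat-1 was called higher under quantile normalization, and without Red replicate 6 its log2 fold was -0.0029. The median log2 fold of the 8 monoamine genes was -0.13, and 0.17 under quantile normalization.

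A list of 74 other synaptic genes gave calls in both directions. By name 70 were found and 69 could be tested, of which 20 fell (29.0%, beside 20.1% of all genes) and 11 rose (15.9%, beside 19%). The median log2 fold was -0.09 and turned to 0.04 after centring, where 13 fell (18.8%, beside 16%) and 17 rose (24.6%, beside 28.5%), so that both shares lay near those of all genes. Of 9 dense core vesicle genes 5 fell (55.6%) and 0 rose. Of 22 active zone and transport genes 10 fell (45.5%) and 4 rose (18.2%). After centring, 3 of the 9 (33.3%) and 6 of the 22 (27.3%) fell, and 5 of the 22 rose (22.7%). Of 7 recycling genes 0 fell and 2 rose (28.6%). Without Red replicate 6 or after centring, 4 of the recycling genes rose and 0 fell. In edgeR 1 of them fell and 2 rose, and under quantile normalization 1 fell and 0 rose. Among 15 release genes 4 fell (26.7%) and 1 rose (6.67%). Among 16 genes of transmitter synthesis, uptake and breakdown 1 fell (6.25%) and 4 rose (25%). The fallen genes with the smallest p were the dense core vesicle gene hid-1, at a log2 fold of -0.76, the diacylglycerol kinase gene dgk-1 at -1.19, the acetylcholinesterase gene ace-3 at -1.33 and the neurexin gene nrx-1 at -0.95 (limma adjusted p = 0.00028, 0.0003, 0.00063 and 0.00069). Those that rose were cat-4, a GTP cyclohydrolase gene whose product makes the cofactor of cat-2 and tph-1, at 0.55, the vglu-3 gene of the vesicular glutamate transporter family at 1.21, ric-7 at 0.50 and glo-4, a partner of rpm-1, at 0.29 (limma adjusted p = 0.0033, 0.0036, 0.0041 and 0.0044). Without Red replicate 6, 22 fell (31.9%, beside 25.5% of all genes) and 14 rose (20.3%, beside 29.3%).

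Markers of several cell types also differed between the groups, and their part in the members' differences was not tested. Of all genes, 20.1% were lower and 19% higher in the main test. Of 8 pan-neuronal markers 4 fell (50%) and 1 rose (12.5%), with a median log2 fold of -0.37. Their summed level was 30274 to 32150 normalized counts in Green and 30478 to 36447 in Red. After centring 1 fell (12.5%) and 2 rose (25%), beside 16% and 28.5% of all genes. Of 10 tested embryo markers 6 fell and 3 rose, and their sum ran from 8305 to 9263 in Green and from 9133 to 11147 in Red. Pharynx markers fell in 4 of 6 cases (2 after centring) and glia markers in 2 of 4, with sums of 5104 to 6337 in Green and 6029 to 8465 in Red for pharynx and of 594 to 854 and 638 to 1036 for glia. Of 8 muscle markers 5 rose and 0 fell, summing to 36955 to 60042 in Green and 24522 to 43367 in Red. Intestine markers had 1 rise and 1 fall among 7, or 14.3% each (2 and 4 with the batch as a block). Epidermis markers had 2 rises and 2 falls among 8, or 25% each. In the main test the shares of these lists lay near those of all genes. Intestine sums were 23607 to 45124 in Green and 18657 to 36387 in Red. Epidermis sums were 7267 to 8131 in Green and 5971 to 7860.02 in Red. A single gene held most of some sums. As means over all libraries, lin-26 had 6275 normalized counts in the epidermis list and fig-1 601 in the glia list. For the embryo list pal-1 had 6037, and for the intestine list asp-1 had 19492.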

How the data were processed

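Per the labels' protocols, a Qiagen miRNeasy kit was used for RNA, and 300 ng a sample went into stranded Roche Kapa mRNA libraries. The submitters' processing notes name FastQC 0.11.8, STAR, MultiQC, Salmon 0.14.2, DESeq2 and build WBcel235; their settings, and whether strand was used, are not stated there. The deposited signal is called normalized counts per the labels; the values themselves show whole counts divided by 1 factor a library, equal to the median-of-ratios size factor. In each library 100% of values came out as whole reads within 0.001, less decisively for Red replicate 2, whose factor is close to 1.

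Groups were compared by limma 3.58.1 (trended eBayes, R 4.3.3) on log2(normalized count + 1), over 14618 genes with a mean of at least 10, with Benjamini-Hochberg adjustment over all of them. The added 1 understates the folds of low genes. The members, lists and tests were chosen with earlier results of these data known. Named were all members and the 4 called genes of smallest p in each direction among the other synaptic genes. Marker lists were given by counts and sums, with a gene named where it held most of a sum. Batch numbers, given in the labels, pair the libraries; deviations from group means correlated by 0.11 to 0.37 within batches, across genes. Alternatives were a batch block, median centring, quantile normalization, 0.5 or 5 in place of 1, a filter at 50 or none, edgeR 4.0.16 and DESeq2 1.42.0 on recovered reads, and leaving out each library or batch 6. The limma fit was tested on simulated data. Positions, exon lengths and overlaps came from the Ensembl release 115 annotation of WBcel235.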

Additional observations from a re-analysis of the deposited data

Results flagged for a closer look

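In 4 of 74 groups of 6 libraries (each of the 37 genes in Green and in Red), the highest or lowest library lay far from the other 5; chance gives this in about 1 group in 20. For rpm-1, Red replicate 6 had 1053 normalized counts, below the other Red libraries at 1468 to 1674. For snf-11, the same library had 103.7, against 193 to 278. Green replicate 1 had 5256 for unc-57, against 7598 to 8887 in the other Green libraries. Green replicate 3 had 20933 for tdc-1, above the others at 16879 to 17898.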

How the results depend on the processing

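The count of members called lower in Green ran from 12 to 18 over the 22 alternatives and stayed within 1.5 times the main count of 14. With the batch as a replicate block it was 15, with 4 called higher and a median log2 fold of -0.28; beside the calls of cho-1, unc-18, unc-26 and eat-4 given above, the block changed no other member's call. The count called higher was 5 after median centring, and ran from 3 to 5 when single libraries were left out, with 5 without Green replicate 1. The members' median log2 fold was -0.15 after median centring and -0.15 under quantile normalization. Each shift was larger than the spread of the members' median between replicates, 0.11. Centring shifted the log2 fold of every gene by the same amount, and the all-gene median went from 0.04 to 0.16. Under quantile normalization the all-gene median stayed at 0.04 while the members' median moved. The median of the transmitter synthesis and transport genes went from -0.41 to 0.01. Of these 15 genes 1 was then lower (6.67%) and 4 higher (26.7%), beside 16.1% of all genes in each direction. The median of the release, transport and recycling genes went from -0.25 to -0.31, with 11 of 21 lower (52.4%) and 0 higher. The cause of the members' move was not tested. The members' median ran from -0.33 to -0.24 when single libraries were left out. Of the 17 called members, 13 kept their call and direction under each of the 22 alternatives that tested them; the exceptions were egl-21, cho-1, snf-11 and cat-2. Over all members and alternatives, 22 results lost their call, 28 gained one, and no called value changed sign. Low counts limit unc-46, unc-47, tph-1, dat-1, cat-1 and cat-2, of which only cat-2 was called in the main test. Depth differed between libraries by the range of totals given above.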

Other observations

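The members lie on all 6 chromosomes. Of the 7 on X, 4 fell and 1 rose, beside 33.1% lower and 11.9% higher among all 2101 tested X-linked genes, whose median log2 fold was -0.22. The X-linked genes that fell were unc-2, unc-10, syd-2 and aex-3, and the one that rose was tbh-1. On chromosome III, where 14.98% of tested genes were lower and the median was 0.11, 2 of 7 members fell, unc-64 and ida-1, and bas-1 rose.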
